A study of Mus musculus with 3 samples.

Results

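The genes described here make prostaglandins, break them down and receive their signal, and they were taken as a named list of 10 mouse genes, found in the deposited table through the array platform's gene symbols. Of the 10, 9 had a value, each from 1 probe set, among 19938 genes with a value in all. Ptgs1, which encodes the constitutive cyclooxygenase COX-1, had no probe set under its own symbol in the annotation used and is not analysed here. Levels came from 3 cultured fibroblast lines of the mouse forestomach, the part of the rodent stomach lined by squamous epithelium, with 1 Affymetrix Mouse Gene 1.0 ST array per line. The Tgfbr2/Smad4 cKO line (title TGFBR2/SMAD4 cKO) carries conditional knockouts of the type II TGF-beta receptor gene and of Smad4, whose protein is shared by TGF-beta and BMP signaling, and came from normal forestomach. The Tgfbr2 cKO line (title TGFBR2cKO) carries the receptor knockout alone and was taken from a forestomach squamous cell carcinoma. The wild-type line came from normal forestomach. All lines were positive for FSP1, the fibroblast protein encoded by S100a4, were grown in serum and were harvested untreated at subconfluency. The mice were of mixed C57BL6 and BALBc background and of either sex. Neither their age nor the driver of the deletions is stated in the labels.

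Prostaglandins are short-lived lipid signals made from arachidonic acid. The cytosolic phospholipase A2 encoded by Pla2g4a frees arachidonic acid from membranes, the cyclooxygenases encoded by Ptgs1 and Ptgs2 turn it into prostaglandin H2, and terminal synthases convert that intermediate into prostaglandin E2 (Ptges), prostacyclin (Ptgis) or prostaglandin D2 (Ptgds). Secreted prostaglandins act on receptors of the same and nearby cells, and 15-hydroxyprostaglandin dehydrogenase (Hpgd) inactivates them. Fibroblasts are a known source of prostaglandin E2 and prostacyclin in the gut wall, and Ptgs2 is the inducible cyclooxygenase gene.

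With 1 array per line, no difference below has a replicate check and no p-value is given. The number of arrays limits the precision, and line, genotype, tissue of origin and culture cannot be told apart. Values are log2 signals, so a difference of 1 is 2-fold. The array medians were 6.63, 6.63 and 6.63 over 35556 probe sets, and a gene was counted in comparisons if its highest value over the arrays reached the median of all values, 6.63, which 11808 genes did. The targeted genes were close to level across arrays. Tgfbr2 had log2 signals of 10.29 in the Tgfbr2/Smad4 cKO array, 10.25 in the Tgfbr2 cKO array and 10.25 in the wild-type array, and Smad4 had 11.04, 11.06 and 11.06 in the same order. A probe set that spans a whole transcript does not check the loss of single exons, so the lines are named as labelled. All 10 fibroblast markers reached the filter in at least 1 array, and 8 were higher and 2 lower in the Tgfbr2/Smad4 cKO array than in wild type, with a median of 0.19. The lower ones were S100a4, at 12.71 in the Tgfbr2/Smad4 cKO array, 13.16 in the Tgfbr2 cKO array and 13.18 in the wild-type array, and Thy1, with a difference to wild type of -2.36, while Pdgfra and Fap were higher by 1.40 and 1.09. Xist had a level of 9.44 in the Tgfbr2/Smad4 cKO array, 5.35 in the Tgfbr2 cKO array and 5.33 in the wild-type array, and Eif2s3y, on the Y chromosome, had 5.01, 10.00 and 10.12 in that order. The Tgfbr2/Smad4 cKO array thus had a female pattern and the others a male one, and sex cannot be told apart from genotype in comparisons with it.

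Among the 9 measured genes of the list, Ptgs2 and Ptgis lay farthest apart in both comparisons with the Tgfbr2/Smad4 cKO line. In the Tgfbr2/Smad4 cKO array Ptgs2 was lower and Ptgis higher than in both other arrays, while Pla2g4a and Ptger4 were lower and Ptges higher by smaller amounts. The Tgfbr2 cKO array differed most from wild type for Ptgis, at -0.54, and next for Pla2g4a, at -0.15, with smaller or no differences for the other members. Of the 9 measured genes, 6 passed the level filter, and Ptgfr, Ptger2 and Hpgd stayed under it in all 3 arrays.

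**Figure D1:**
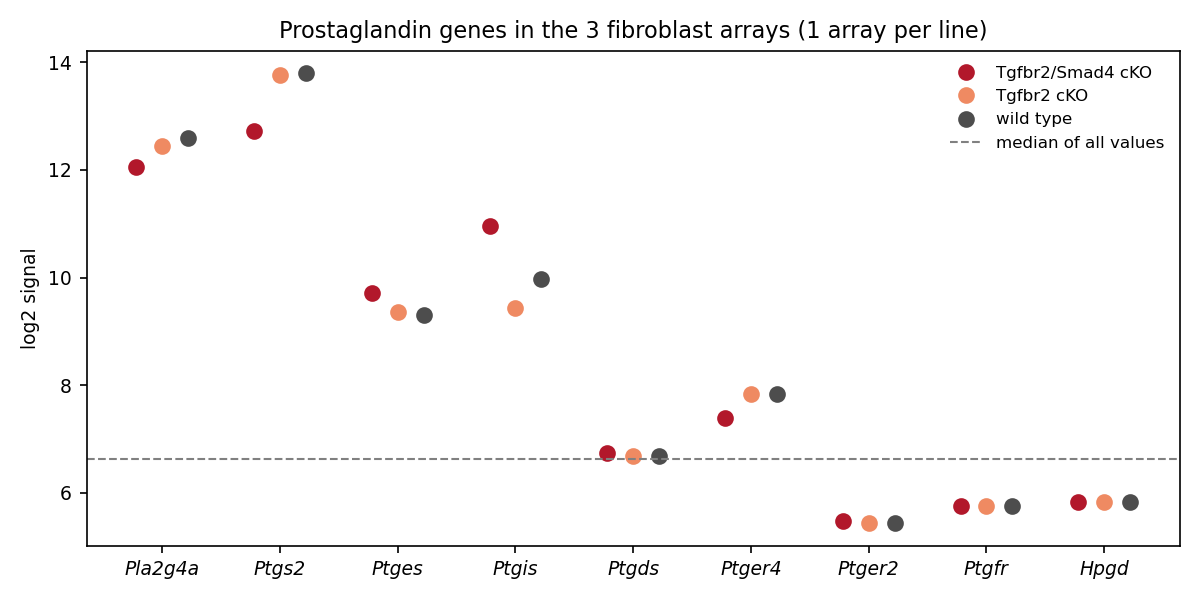
Log2 signal (y axis) of the 9 measured prostaglandin genes (x axis) in the Tgfbr2/Smad4 cKO, Tgfbr2 cKO and wild-type arrays, 1 point per array. The dashed line marks the median of all values, 6.63, and Ptger2, Ptgfr and Hpgd lie under it in all 3 arrays.

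Arachidonic acid release came first in the order of synthesis. Pla2g4a had log2 signals of 12.06 in the Tgfbr2/Smad4 cKO array, 12.45 in the Tgfbr2 cKO array and 12.59 in the wild-type array. It was lowest in the Tgfbr2/Smad4 cKO array. Against wild type its difference was -0.54 in the Tgfbr2/Smad4 cKO line, a level 1.45-fold lower, and -0.15 in the Tgfbr2 cKO line. The Tgfbr2/Smad4 cKO line minus the Tgfbr2 cKO line gave -0.39. Of the 11808 genes counted, 5.85% had a Tgfbr2/Smad4 cKO difference to wild type at least as negative, and 3.68% a Tgfbr2 cKO difference at least as negative.

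Ptgs2, the source of COX-2, had log2 signals of 12.73 in the Tgfbr2/Smad4 cKO array, 13.76 in the Tgfbr2 cKO array and 13.80 in the wild-type array. The signal was thus far above the array median in every line, and the Tgfbr2/Smad4 cKO array was the one that stood apart. There Ptgs2 was 2.10-fold lower than in wild type, a log2 difference of -1.07, and 2.05-fold lower than in the Tgfbr2 cKO line, a difference of -1.04. The Tgfbr2 cKO line differed from wild type by -0.03. Among the 11808 genes, 230 had a difference at least as negative in the Tgfbr2/Smad4 cKO line against wild type, or 1.95%.

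The terminal synthases did not share that direction. Ptges, which encodes the microsomal prostaglandin E synthase that acts downstream of COX-2, had log2 signals of 9.71 in the Tgfbr2/Smad4 cKO array, 9.36 in the Tgfbr2 cKO array and 9.30 in the wild-type array. It was highest in the Tgfbr2/Smad4 cKO array, with a difference to wild type of 0.42, or 1.34-fold, and 0.35 to the Tgfbr2 cKO line. Of the genes counted, 5.41% had a Tgfbr2/Smad4 cKO difference to wild type at least as positive. Ptgds, the lipocalin-type prostaglandin D synthase gene, had 6.75 in the Tgfbr2/Smad4 cKO array and 6.68 in both the Tgfbr2 cKO and wild-type arrays, values just over the filter.

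Ptgis, the prostacyclin synthase gene, varied most of all members, over a range of 1.53 on the log2 scale. Its log2 signals were 10.96 in the Tgfbr2/Smad4 cKO array, 9.43 in the Tgfbr2 cKO array and 9.97 in the wild-type array, so the knockout lines lay on opposite sides of wild type. The Tgfbr2/Smad4 cKO line was higher than wild type by 0.99, a 1.99-fold difference that fell just under the 2-fold rule, and higher than the Tgfbr2 cKO line by 1.53, or 2.89-fold. With quantile normalization of the arrays the difference to wild type was 1.02 and past the rule. The Tgfbr2 cKO line was lower than wild type by 1.45-fold, a difference of -0.54, and 24 of the 11808 genes, 0.203%, had a difference at least as negative in that pair. Differences in that pair were small, and 55.1% of the genes counted had exactly equal values in those arrays.

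**Figure D2:**
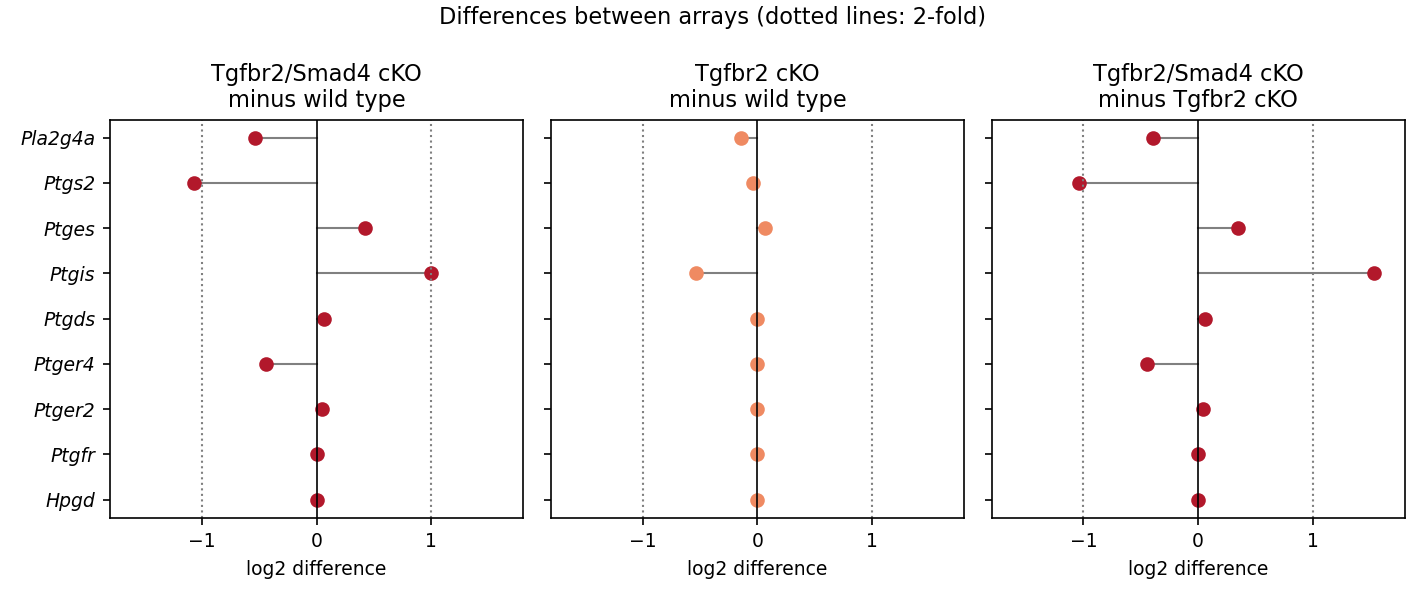
Log2 difference (x axis) of each measured prostaglandin gene in each of the 3 comparisons, with dotted lines at 2-fold. In the comparisons with the Tgfbr2/Smad4 cKO line Ptgs2 lies to the left and Ptgis to the right, while in Tgfbr2 cKO minus wild type the member farthest from 0 is Ptgis at -0.54.

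Set against each other, Ptgis and Ptgs2 parted by 2.06 in the Tgfbr2/Smad4 cKO line minus wild type and by 2.57 in that line minus the Tgfbr2 cKO line, as the Ptgis difference minus the Ptgs2 difference. Ptges and Ptgs2 parted by 1.49 and 1.39 in the same comparisons. In the Tgfbr2 cKO line minus wild type, the Ptgis difference minus the Ptgs2 difference was -0.50, the opposite sign.

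Upstream sequences are shown for the genes that were lower in the Tgfbr2/Smad4 cKO array and for Ptges, which was higher, so that their likeness can be read directly. Each is the 250 bases before the RefSeq start on build GRCm38.p6, written 5′ to 3′ on the gene's strand, at chr1:150099781-150100030 on the plus strand for Ptgs2 and, on the minus strand, at chr1:149961291-149961540 for Pla2g4a, chr15:5244188-5244437 for Ptger4 and chr2:30903298-30903547 for Ptges. Capitals mark matches to the motifs searched.
Ptgs2: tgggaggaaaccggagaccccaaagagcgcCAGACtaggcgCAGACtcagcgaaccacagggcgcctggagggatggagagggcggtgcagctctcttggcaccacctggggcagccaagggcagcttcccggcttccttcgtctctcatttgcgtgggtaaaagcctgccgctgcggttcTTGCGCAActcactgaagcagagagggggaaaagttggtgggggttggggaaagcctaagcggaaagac
Pla2g4a: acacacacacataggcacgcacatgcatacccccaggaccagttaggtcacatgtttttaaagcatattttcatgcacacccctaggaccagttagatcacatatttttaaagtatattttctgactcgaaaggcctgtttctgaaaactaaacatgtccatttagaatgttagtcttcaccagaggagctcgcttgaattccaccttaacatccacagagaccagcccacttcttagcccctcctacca
Ptger4: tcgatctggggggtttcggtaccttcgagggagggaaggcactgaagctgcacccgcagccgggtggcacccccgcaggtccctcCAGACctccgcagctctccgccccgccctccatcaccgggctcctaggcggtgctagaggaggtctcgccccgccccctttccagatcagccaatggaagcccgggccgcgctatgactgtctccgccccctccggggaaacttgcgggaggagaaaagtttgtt
Ptges: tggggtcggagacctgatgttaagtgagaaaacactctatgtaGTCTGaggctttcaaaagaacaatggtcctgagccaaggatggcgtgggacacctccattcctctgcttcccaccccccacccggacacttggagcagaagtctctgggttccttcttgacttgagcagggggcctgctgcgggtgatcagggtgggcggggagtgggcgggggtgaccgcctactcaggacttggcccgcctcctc
Windows of 300 bases, which add the first 50 bases after the start, were searched on both strands, and 9 of the 10 listed genes had one. Ptgis had none in the table. The motifs were the cAMP response element core TGACG, the E-box CACGTG, the C/EBP palindrome TTGCGCAA, the TATA box TATAAA, the AP-1 site TGANTCA and the SMAD-binding element CAGAC. The Ptgs2 window held the C/EBP palindrome 69 to 62 bases before the start, a motif found in 0.183% of the 32851 windows in the table. It also held a TGACG match at bases 14 to 18 after the start, which overlaps a CACGTG match at bases 17 to 22. Those motifs occurred in 20.8% and 7.15% of all windows and in no other member's window. CAGAC matched in 6 of the 9 windows, those of Ptgs1, Ptgs2, Ptges, Ptgds, Ptger4 and Hpgd, against 49.6% of all windows, so this 5-base motif was about as common here as elsewhere. The Pla2g4a window shown had no match to any of the 6 motifs. TATAAA matched in the Hpgd window and TGANTCA in the Ptgds window, against 13.6% and 7.81% of all windows. A match is a run of letters and was not tested as a binding site.

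Among the 3 listed prostaglandin receptors, Ptger4 alone passed the level filter. Ptger4, which encodes the cAMP-raising prostaglandin E2 receptor EP4, had log2 signals of 7.39 in the Tgfbr2/Smad4 cKO array and 7.83 in both the Tgfbr2 cKO and wild-type arrays. Its difference in the Tgfbr2/Smad4 cKO line was -0.44 to either, a 1.36-fold lower level, and 7.41% of genes had a difference to wild type at least as negative. Ptger2, the gene of the related receptor EP2, had 5.48 in the Tgfbr2/Smad4 cKO array and 5.44 in each of the others, under the filter by 1.15 at its highest. Ptgfr, the prostaglandin F receptor gene, was listed at 5.76 in all 3 arrays. For breakdown, Hpgd was listed at 5.83 in all 3 arrays. These 3 dim genes were read at signals where a small difference could be missed, and exactly equal values were common in the table.

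By count, 1 of the 6 genes that passed the filter was at least 2-fold different between the Tgfbr2/Smad4 cKO line and wild type, which was Ptgs2 on the lower side, against 3.4% of all genes counted. That share was made up of 1.22% on the higher side and 2.18% on the lower side. Between the Tgfbr2/Smad4 cKO and Tgfbr2 cKO lines 2 of 6 were, Ptgs2 lower and Ptgis higher, against 3.57% of all genes, 1.32% on the higher and 2.25% on the lower side. Between the Tgfbr2 cKO line and wild type 0 of 6 were, against 0.0339% of all genes. Counts of this size carry little weight for the group as a whole. Its median difference was -0.19 in the Tgfbr2/Smad4 cKO line minus wild type, -0.02 in the Tgfbr2 cKO line minus wild type and -0.17 in the Tgfbr2/Smad4 cKO line minus the Tgfbr2 cKO line, against medians of 0, 0 and 0 over all genes counted. In size, the median absolute difference of the 6 was 0.49 in the Tgfbr2/Smad4 cKO line minus wild type, against 0.06 over all genes counted, a median that 36.7% of exactly equal values hold down. The listed genes were chosen with earlier results of these data known, so neither this size nor the counts lend support to a change in the group. The comparisons share arrays pairwise and are not independent.

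**Figure D3:**
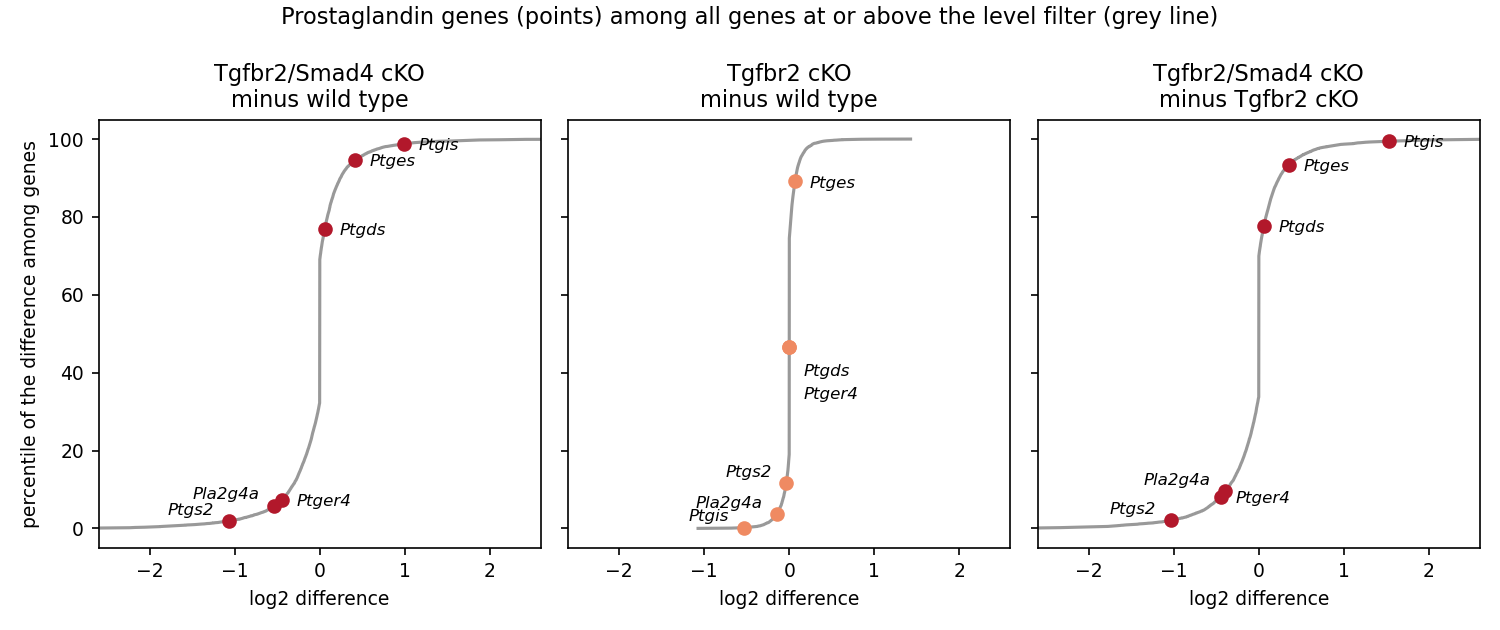
Percentile (y axis) of each log2 difference (x axis, drawn from -2.6 to 2.6) among all 11808 genes at or above the level filter, with the 6 prostaglandin genes that passed it as points on the curve. In the comparisons with the Tgfbr2/Smad4 cKO line Ptgs2 sits near the lower end and Ptgis near the upper end, and in Tgfbr2 cKO minus wild type Ptgis sits at the lower end. The vertical stretch at 0 holds the genes with equal values.

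Likeness in pattern was measured by the Euclidean distance between pairs of differences to wild type. The search covered 10544 genes with 1 probe set, an established symbol and a highest value at or above the filter. The genes nearest to Ptgs2 were Ablim1, Lpar4, Pole and Tm4sf1, at distances of 0.003, 0.009, 0.021 and 0.023. Ablim1 lay just under the filter in the Tgfbr2/Smad4 cKO array, at 6.62. Ablim1 encodes an actin-binding protein, Lpar4 a lysophosphatidic acid receptor, Pole the catalytic subunit of DNA polymerase epsilon and Tm4sf1 a cell surface protein with several membrane spans. Their differences in the Tgfbr2/Smad4 cKO line minus wild type lay between -1.09 for Pole and -1.05 for Tm4sf1. Ptgis had no neighbour as close. Its nearest were Bckdhb at 0.10, Tbx15 at 0.11, Neto1 at 0.15 and Efemp1 at 0.18. In the Tgfbr2 cKO array Tbx15 and Neto1 had levels of 6.07 and 5.94, under the filter. Neto1 was also just under it in wild type, at 6.62. Bckdhb encodes a subunit of the branched-chain keto acid dehydrogenase and Tbx15 a T-box transcription factor of mesenchymal development. Efemp1, which encodes the matrix glycoprotein fibulin-3, was higher than wild type by 1.08 in the Tgfbr2/Smad4 cKO line and had a difference of -0.38 in the Tgfbr2 cKO line. Such closeness over 3 arrays is a description of these arrays.

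The other enzymes, receptors and transporters of the prostanoids were described as a list of 18 genes, 17 of them measured and 11 at or above the filter. Of these 11, in the Tgfbr2/Smad4 cKO line against wild type, 1 was at least 2-fold lower and 0 at least 2-fold higher, against 2.18% and 1.22% over all genes, with 5 above 0, 5 below 0 and a median of 0. Over all 11808 genes counted in that comparison 3671 were above 0 and 3801 below, also with a median of 0. The lower one was Prxl2b, which encodes prostamide/prostaglandin F synthase. Its log2 signals were 8.18 in the Tgfbr2/Smad4 cKO array, 9.77 in the Tgfbr2 cKO array and 9.51 in the wild-type array. It was thus 2.52-fold lower than wild type and 3.02-fold lower than the Tgfbr2 cKO line in the Tgfbr2/Smad4 cKO line. The next members by size, named after their values were seen, were Tbxa2r, the thromboxane receptor gene, at 0.47 and Ptgr1, a prostaglandin reductase gene, at -0.47. Slco2a1, which encodes the prostaglandin uptake transporter, differed by -0.34. The receptor genes Ptger3, Ptgdr, Ptgdr2 and Ptgir and the synthase genes Hpgds and Tbxas1 were under the filter in all 3 arrays.

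**Figure D4:**
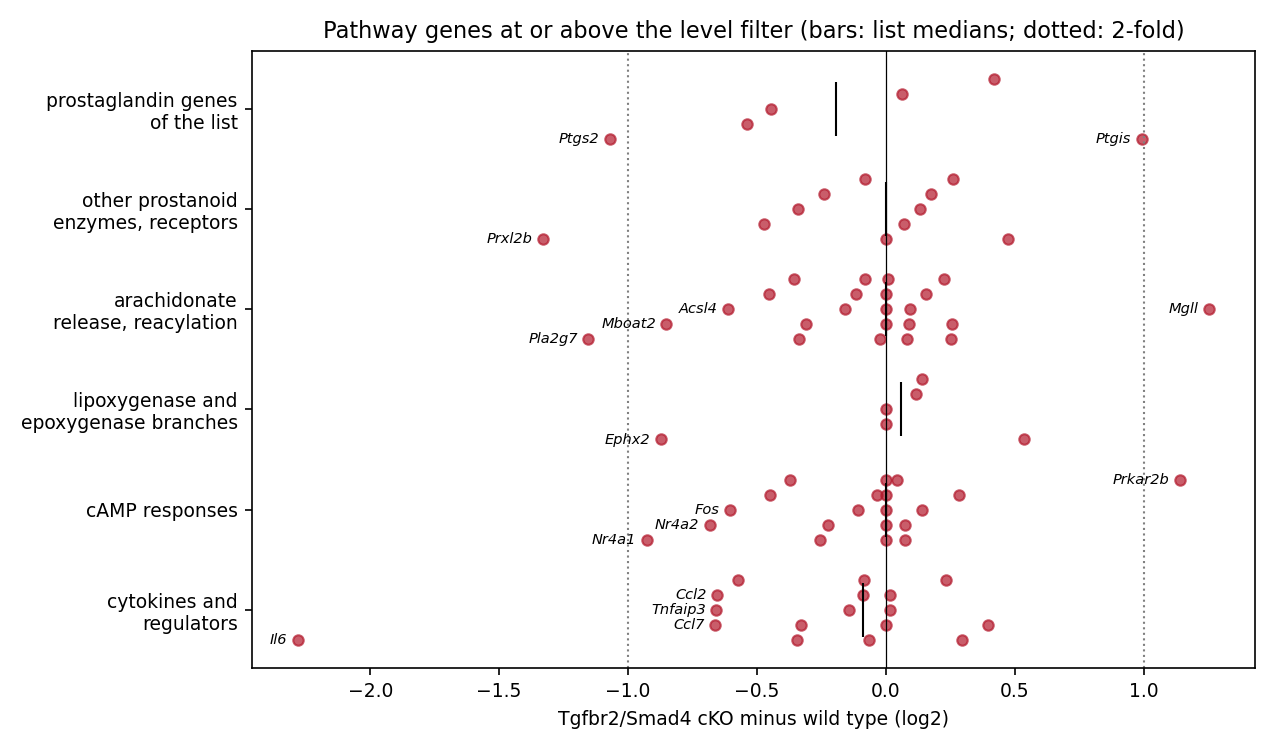
Log2 difference of the Tgfbr2/Smad4 cKO line minus wild type (x axis) for the genes at or above the level filter in the listed prostaglandin group and 5 related lists (rows), 1 point per gene with list medians as black bars and dotted lines at 2-fold. The list medians lie between -0.19 and 0.06, while single genes such as Il6, Prxl2b, Pla2g7, Mgll and Prkar2b lie beyond 2-fold. Points are spread vertically for legibility.

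The next list held genes that release arachidonic acid or return it to membranes, phospholipase regulators, and the fatty acid genes Fads1, Fads2 and Elovl5. Of its 29 genes 27 were measured, 23 at or above the filter. In the Tgfbr2/Smad4 cKO line against wild type 1 was at least 2-fold higher, another at least 2-fold lower, with 9 above 0, 11 below 0 and a median of 0, against 1.22% higher and 2.18% lower by that rule over all genes. Mgll, which encodes monoacylglycerol lipase, an enzyme that frees arachidonic acid from the endocannabinoid 2-arachidonoylglycerol, had 10.53 in the Tgfbr2/Smad4 cKO array, 9.11 in the Tgfbr2 cKO array and 9.28 in the wild-type array. It was 2.39-fold higher than wild type in the Tgfbr2/Smad4 cKO line, a direction opposite to that of Pla2g4a. Pla2g7, the plasma platelet-activating factor acetylhydrolase gene, which macrophages express strongly, had 6.33 in the Tgfbr2/Smad4 cKO array and 7.49 in the Tgfbr2 cKO and wild-type arrays. The level of 6.33 is under the filter. Pla2g7 was thus counted only through the other arrays and was bound to be lower in the Tgfbr2/Smad4 cKO array. Mboat2, a lysophospholipid acyltransferase gene, and Acsl4, which encodes the acyl-CoA synthetase that prefers arachidonic acid, differed by -0.85 and -0.61 in that comparison. In the Tgfbr2/Smad4 cKO line minus the Tgfbr2 cKO line they differed by -1.10 and -0.69.

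The lipoxygenase, leukotriene and epoxygenase branches use the same substrate. Of 17 measured genes 6 reached the filter, and the 5-lipoxygenase gene Alox5 and its activating protein gene Alox5ap were under it, listed at 6.53 and 6.22 in every array. Between the Tgfbr2/Smad4 cKO line and wild type 0 of the 6 were at least 2-fold different, against 3.4% of all genes counted. The list median was 0.06. Ephx2 and Ephx1, the soluble and microsomal epoxide hydrolase genes, differed by -0.87 and 0.54. Against the Tgfbr2 cKO line, Ephx2 differed by -1.03.

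Genes known to answer cAMP or to act in its pathway, downstream of the EP2 and EP4 receptors among many other inputs, were measured in 21 of 23 cases, 20 at or above the filter. In the Tgfbr2/Smad4 cKO line against wild type 1 was 2-fold or more higher, 0 were 2-fold or more lower, with 6 above 0, 9 below 0 and a median of 0, against the same 1.22% and 2.18% over all genes. The higher one was Prkar2b, a regulatory subunit gene of protein kinase A, at 11.28 in the Tgfbr2/Smad4 cKO array, 9.99 in the Tgfbr2 cKO array and 10.14 in the wild-type array. The orphan nuclear receptor genes Nr4a1 and Nr4a2, early cAMP response genes, differed by -0.93 and -0.68, and the phosphatase gene Dusp1 by -0.45. The immediate early gene Fos, named after its value was seen, differed by -0.60. Others of the list did not go that way, with Pde4d at 0.28, Sik1 at 0.04, and Crem, Per1 and Pde4a at 0. Egr1, from the list of cytokines and regulators below, differed by 0.40. In the Tgfbr2 cKO line minus wild type Nr4a1, Nr4a2 and Dusp1 differed by -0.01, 0 and 0.20.

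Cytokines and regulators that often accompany Ptgs2 induction were measured in 22 of 25 cases, 17 at or above the filter. In the Tgfbr2/Smad4 cKO line against wild type 11 were below 0 and 5 above, with a median of -0.09. Of the 17, 1 was at least 2-fold lower and 0 at least 2-fold higher, against 2.18% and 1.22% of all genes counted. Over all genes counted, 3801 were below 0 and 3671 above in that comparison. In the Tgfbr2 cKO line against wild type 12 were above 0 and 0 below, with a median of 0.08 and none 2-fold different, while over all genes counted 3052 were above 0 and 2245 below. Il6 had 6.89 in the Tgfbr2/Smad4 cKO array, 9.88 in the Tgfbr2 cKO array and 9.17 in the wild-type array, and was the 2-fold lower one. Il11, a cytokine of the same family, had 7.03, 8.39 and 7.60 in that order. The chemokine gene Ccl2 differed by -0.66 and Tnfaip3, a feedback inhibitor of NF-kB, by -0.66 in the Tgfbr2/Smad4 cKO line, and by 0.14 and 0.22 in the Tgfbr2 cKO line, each against wild type. Over those 4 genes the Tgfbr2 cKO line was the highest of the 3, whereas Ptgs2 differed by -0.03 between that line and wild type.

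The lists of smooth muscle, mesothelial, leukocyte and epithelial markers also differed between the arrays, which does not show that such cells were present. All 7 smooth muscle markers were lower in the Tgfbr2/Smad4 cKO array than in wild type. Of these, 5 were at least 2-fold lower, against 2.18% of all genes counted. On the log2 scale the 7 had a summed signal of 15.35 in the Tgfbr2/Smad4 cKO array. It was 16.24 in the Tgfbr2 cKO array and 16.18 in the wild-type array. Of the 6 mesothelial markers 5 reached the filter, all lower in the Tgfbr2/Smad4 cKO array than in wild type. Over all 6, dim ones included, the summed signals were 9.65, 10.73 and 11.13 in the same order. Of 7 measured leukocyte markers 3 reached the filter, 2 of them lower than wild type in the Tgfbr2/Smad4 cKO array and higher in the Tgfbr2 cKO array. Summed over all 7, those under the filter included, the signals were 9.30, 10.26 and 9.74. The defining leukocyte gene Ptprc was listed at 5.23 in every array, under the filter. None of the 8 mast cell markers reached the filter, and the 7 endothelial markers had equal values in all 3 arrays. Of 10 epithelial markers 3 reached the filter, all lower than wild type in the Tgfbr2/Smad4 cKO array. Summed over all 10, most of them under the filter, the signals were 9.56, 10.30 and 10.18. Krt19, which stands in both the mesothelial and the epithelial list, had 6.93, 9.25 and 8.82, while Epcam, Krt5, Krt14, Krt13 and Krt4 were equal in all 3 arrays. All 11 measured proliferation genes were lower than wild type in the Tgfbr2/Smad4 cKO array as well, with a median difference of -1.92. Over all 11808 genes counted, 3801 were below 0 in that comparison. The filter takes the highest of the 3 arrays, so a marker under it in the Tgfbr2/Smad4 cKO array was bound to be lower there than in another array. In that array 3 mesothelial, 2 epithelial, 6 smooth muscle and 8 proliferation genes reached the filter. For the rest of those counted the shared direction carries less weight. In bulk RNA fewer cells of a type and less RNA per cell cannot be told apart, and the part of these markers in the differences of Ptgs2, Ptgis and the other genes was not tested.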

How the data were processed

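RNA from 3 fibroblast lines was read on 3 Mouse Gene 1.0 ST arrays of Affymetrix. The authors summarised the scans to transcript level, per the labels' protocols, and deposited 1 log2 signal per probe set and array for 35556 probe sets. That scale is inferred from the values' range of 2.82 to 15.6, since the labels do not state it. Of software, background correction, normalization and build the sources used here say nothing. Array medians differed by at most 0.00413, so values were used as deposited. Names came from the platform annotation (21789 with 1 symbol, 1621 with several, 12146 not listed), with symbols updated through a RefSeq table of GRCm38.p6 for 21698, and averaged per gene. The groups come from the sample titles. Differences are 1 array minus another, with no test, no paired fit and a size rule of 2-fold among genes whose highest value was at or above 6.63. Every listed prostaglandin gene is named. From each related list the genes at least 1.5-fold different in a comparison are named, at most the 4 with the largest difference, and the 4 genes nearest in pattern are given for members at least 1.5-fold different. The listed genes and all lists were chosen with earlier results of these data known. The alternatives were median centring, quantile and cyclic loess normalization, the probe set with the highest mean, 32 added to the linear signal, other level filters (none, or the 75th percentile) and size rules of 1.5-fold and 3-fold, and, chosen after seeing the data, genes whose 3 values all differ. The counting step was tested on simulated data. Python 3.11.15, numpy 2.4.6, pandas 2.3.3, matplotlib 3.10.9, R 4.3.3 and limma 3.58.1 were used.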

Additional observations from a re-analysis of the deposited data

How the results depend on the processing

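No paired analysis was possible because each line has 1 array. Over 4 alternative settings (3 normalizations and the linear offset), the 108 recomputed differences of the 9 measured genes moved by less than 0.1 on the log2 scale and none changed sign past 2-fold. The choice between probe sets could not bear on these genes, which have 1 each. The count of prostaglandin genes past the size rule in the Tgfbr2/Smad4 cKO line minus wild type was 2 in place of 1 with quantile normalization, where Ptgis crossed the rule at 1.02. It was also 2 with the 1.5-fold rule and 0 with the 3-fold rule. In that line minus the Tgfbr2 cKO line the count was 0 in place of 2 with the 3-fold rule. The background share of all genes past the rule moved with the same choices. For the Tgfbr2/Smad4 cKO line minus wild type it was 3.4%, and 2.02% with no level filter, 8.44% at 1.5-fold, 1.28% at 3-fold and 8.64% among genes whose 3 values all differ. For that line minus the Tgfbr2 cKO line it was 3.57%, and 2.13%, 9.01%, 1.36% and 9.12% under the same settings. For the Tgfbr2 cKO line minus wild type it was 0.0339%, and 0.0169% with 32 added to the linear signal, 0.373% at 1.5-fold, 0% at 3-fold and 0.0905% among genes whose 3 values all differ. The filters change which genes are counted, and the size rules change how far a gene must differ. The causes of these shifts, including that under the linear offset, were not tested. Signals under the array median limit what can be read for Ptger2, Ptgfr and Hpgd.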

Other observations

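In the order of genes on the chromosome in the RefSeq table, Pla2g4a and Ptgs2 are the nearest protein-coding neighbours of each other on that side, on chromosome 1 and on opposite strands, with a pseudogene and the long noncoding RNA gene Ptgs2os between them. Both were lower in the Tgfbr2/Smad4 cKO line than in wild type, by differences of -0.54 and -1.07. The protein-coding genes next to Ptgis on one side did not show its pattern. B4galt5, Slc9a8 and Spata2 differed from wild type by -0.15, 0.18 and 0 in the Tgfbr2/Smad4 cKO line, against 0.99 for Ptgis. Around Prxl2b, which differed by -1.33, the neighbouring genes Mmel1, whose signal was under the array median, and Tnfrsf14 differed by 0.08 and -0.30 in the same comparison. These genes were looked up after the values of their neighbours had been seen.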
